A study of Mus musculus with 6 samples.

Results

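The solute carriers (SLC) of the mouse lines EPC, EPC_acLDL and EPC_Late (3 lines in all) were examined on Illumina MouseRef-8 v2.0 BeadChips with 2 arrays per line. A probe was taken when its gene name began with SLC and a digit and it was detected (p-value below 0.05) on each array of the pair from 1 or more of the lines. The rule gave 40 probes of 456 solute carrier probes (8.77%), from 38 of 307 gene names, and 2333 of all 25697 probes met the same detection criterion (9.08%). The detection p-values of these arrays therefore chose the members, and how many were above background is a description.

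All 3 lines came from lung of athymic nude mice and are labelled endothelial progenitor cells. The cells were sorted on surface markers that included Flk-1, the receptor encoded by Kdr, and the absence of CD45. EPC was the primary line, taken at passages 3 to 6. EPC_acLDL was likewise taken at passages 3 to 6, after cells that took up fluorescent acetylated low density lipoprotein had been sorted and replated. EPC_Late was the high passage line, at passages 16 to 20 per the labels, while the study's methods give a later last passage. It was the EPC_acLDL line carried on in culture, so that sorting for uptake and passage cannot be told apart in EPC_Late against EPC. Each line is 1 culture history. Whether the 2 arrays of a line came from separate cultures is not settled by the sources used here. The study's methods describe separate experiments run in duplicate, without placing the 2 arrays of a line among them. The p-values therefore rest on the spread between arrays of a line, which may be technical. That spread is moderated over all probes tested.

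Solute carriers are membrane proteins that move amino acids, sugars, ions, metals, nucleotides and metabolites across the plasma membrane or the membranes of organelles. Their families are numbered, and members of a family usually share a fold and related substrates. Some carriers exchange one solute for another, and others couple transport to the sodium gradient across the plasma membrane. The SLC25 family lies mainly in the inner mitochondrial membrane, SLC35 in the Golgi apparatus and endoplasmic reticulum, SLC30 moves zinc out of the cytosol and SLC39 moves zinc into it.

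Array quality was even. The median intensity was 304.6 to 358.7, between 2177 and 2365 probes per array were above background, and the 2 arrays of a line correlated at r = 0.989 to 0.992 over the 2333 probes tested. The labelled cell type was weakly seen. Of 16 probes for 12 endothelial genes, 15 were above background on no array, including those of Pecam1, Cdh5, Tek, Tie1 and Vwf, and Kdr alone met the detection rule. Beyond the endothelial list, 2 of 12 leukocyte probes, 1 of 9 fibroblast, 2 of 8 smooth muscle and 1 of 5 epithelial probes met it. Among 16 widely expressed genes, picked after their values had been seen, 11 had no probe above background on any array, among them Gapdh, B2m, Ldha and Vim, while probes of Actb, Tuba1b and Ppia were above it on all 6. A carrier probe at background is therefore not read here as a carrier that was not expressed. Probes of carriers best known from other tissues, Slc1a7, Slc30a8, Slc26a4 and Slc45a2, were above background on all 6 arrays. Whether a detected probe measured the transcript it is named for was not tested, so every value below is that of a probe, named by the gene the file gives it.

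Of the 40 members, 27 were above background on all 6 arrays, and 403 of the 456 solute carrier probes were above background on none. The remaining members comprised 6 probes above on 5 arrays (Slc1a6, Slc38a1, Slc39a13, Slc25a26, Slc35c1 and Slc2a10), 2 on 4 arrays (Slc25a15 and Slc13a3), 1 on 3 arrays (Slc44a4) and 4 on 2 arrays (Slc39a7, Slc8b1, Slc2a8 and Slc17a2). By line, 2 members met the criterion in EPC only, 4 in EPC_acLDL only and 1 in EPC_Late only. Detection was often close to the threshold. The members nearest to it were Slc17a2 and Slc8b1, whose deciding detection p-value was 0.0489, and Slc13a3, Slc2a8, Slc39a7 and Slc44a4, all at 0.0464, and the nearest probes left out were those of Slc25a34 (0.0514), Slc43a2 (0.0526) and Slc7a2 (0.0539). Only 13 members had a detection p-value below 0.01 on all 6 arrays.

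**Figure D1:**
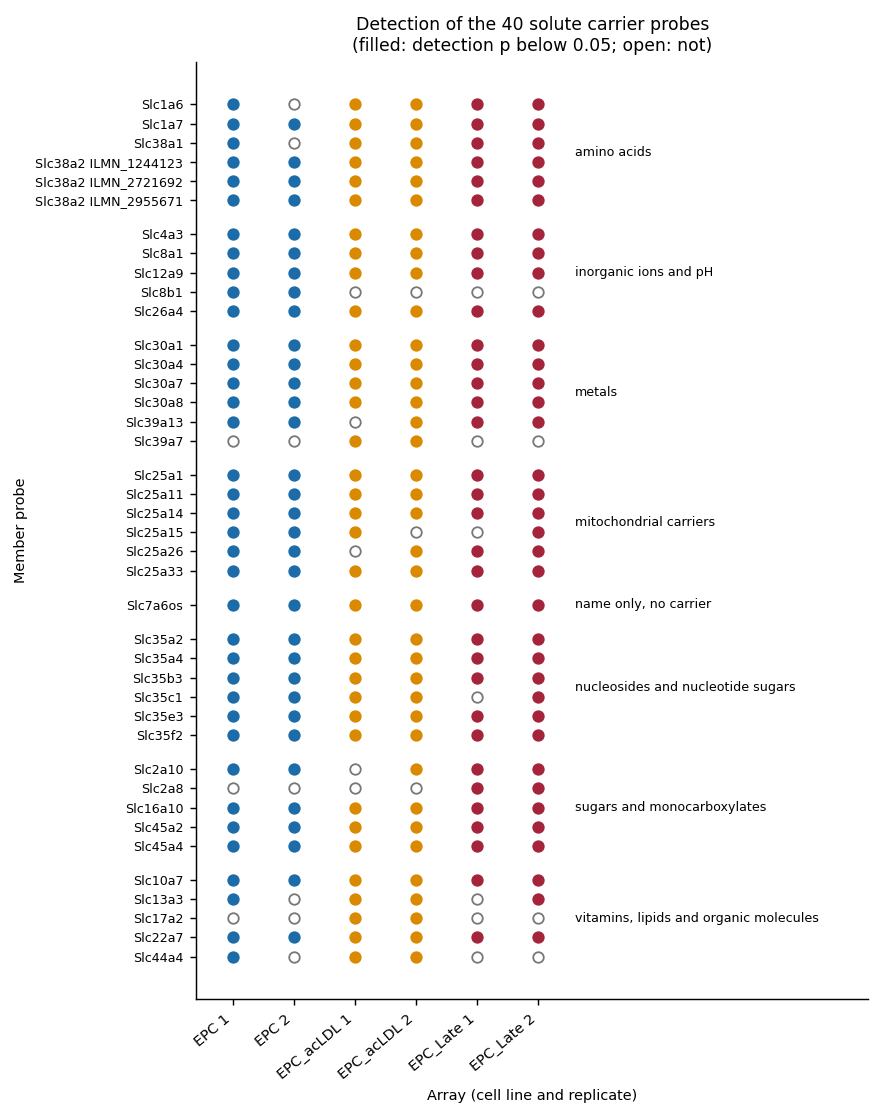
Each row is 1 of the 40 member probes, grouped by substrate, and each column is 1 array. Filled circles mark a detection p-value below 0.05 and open circles one that was not below it; 27 rows are filled on all 6 arrays.

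The carriers among the members belonged to 19 of the 45 numbered families with a probe on the array. The mitochondrial family SLC25 had 6 members among 59 probes, and the nucleotide sugar family SLC35 had 6 among 29. The zinc exporters SLC30 had 4 among 13 probes, the sodium-coupled amino acid carriers SLC38 had 4 among 13 and the zinc importers SLC39 had 2 among 22. No probe met the rule among 22 of SLC6, which holds neurotransmitter transporters, 15 of the sodium-proton exchangers SLC9 or 13 of the sodium-glucose family SLC5. One member, Slc7a6os, carries the name only: it is a gene beside Slc7a6 and no carrier, with 560.5 to 660.4 over the 6 arrays and no call, so 39 probes and 37 genes were carriers. Of the 38 member genes, 18 had more than 1 probe, and 17 had at least 1 probe that did not meet the rule. Those probes numbered 30, of which 27 were above background on no array.

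The starts of the 3 genes whose differences were past the threshold with each array left out in turn are shown to give the sequence around them. Each run is the 250 bases before a RefSeq start site on build GRCm38.p6, 5′ to 3′ on the strand of the gene. The Slc38a2 window is chr15:96699729-96699978, the Slc25a1 window chr16:17928220-17928469, and the Slc35b3 windows chr13:38960880-38961129 and chr13:38960538-38960787, all on the minus strand. Capitals mark the motifs searched on both strands, namely the CCAAT box (CCAAT), the GC box (GGGCGG), the E-box (CACGTG) and the TATA box (TATAAA).
Slc38a2: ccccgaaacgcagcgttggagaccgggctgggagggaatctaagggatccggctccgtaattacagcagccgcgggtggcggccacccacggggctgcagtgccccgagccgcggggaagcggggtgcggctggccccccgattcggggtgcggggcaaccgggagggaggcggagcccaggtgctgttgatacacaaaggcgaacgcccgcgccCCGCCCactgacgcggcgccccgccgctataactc
Slc25a1: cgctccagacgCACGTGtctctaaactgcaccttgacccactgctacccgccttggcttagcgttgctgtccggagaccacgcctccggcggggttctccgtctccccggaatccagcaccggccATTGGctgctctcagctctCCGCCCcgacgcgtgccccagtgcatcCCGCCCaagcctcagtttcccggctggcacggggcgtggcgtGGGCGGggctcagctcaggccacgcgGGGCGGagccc
Slc35b3, first start site: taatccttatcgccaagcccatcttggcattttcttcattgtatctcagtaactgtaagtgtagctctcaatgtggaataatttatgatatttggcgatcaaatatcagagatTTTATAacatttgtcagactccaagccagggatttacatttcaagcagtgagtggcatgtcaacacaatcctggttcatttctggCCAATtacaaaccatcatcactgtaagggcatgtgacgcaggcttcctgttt
Slc35b3, second start site: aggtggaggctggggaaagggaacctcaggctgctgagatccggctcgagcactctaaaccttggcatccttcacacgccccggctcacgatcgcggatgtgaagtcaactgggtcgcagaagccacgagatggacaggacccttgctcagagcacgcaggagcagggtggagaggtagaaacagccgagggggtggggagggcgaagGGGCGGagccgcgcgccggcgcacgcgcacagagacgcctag
The Slc25a1 window held 4 GC boxes, 1 CCAAT box and 1 E-box, and the Slc38a2 window held 1 GC box. The first Slc35b3 window, at 39.6% GC, held a CCAAT box and the TATA box letters on the opposite strand (TTTATA). The second held 1 GC box at 65.2% GC. These are matches of letters, and their function was not tested. Shares were counted over genes, with the first listed window of each. The shares over all genes take every gene with a window, detected here or not. They therefore do not set carriers apart from other detected genes. Of the 38 member genes 30 had a window, and 21 of these (70.0%) held a GC box, against 32.9% of 27025 genes. The median GC content of these windows was 63.0% in member genes and 52.0% over all genes. An E-box was in 8 of 30 (26.7%) against 6.05%, a CCAAT box in 9 of 30 against 34.5%, and a TATA box in 2 of 30 (6.67%) against 13%. The amino acid response type motif TGATGCAA was in 0.818% of all genes and in 0 of the 30.

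Intensities below are the deposited linear values. Differences are of normalized log2 signal, in which the background estimated from detection p-values was removed, and adjusted p-values are from limma over all 2333 probes. Standard errors (SE) are from limma too, which draws the spread of each probe towards that of all 2333. Fewer cells of a type and less RNA per cell cannot be told apart in such bulk RNA. The comparisons share arrays, so their values are given side by side.

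Between EPC_Late and EPC, 4 members rose and 1 fell, which is 12.5% of 40, where 23.9% of all 2333 probes tested were past the threshold (10.9% higher and 13% lower). Slc38a2, Slc25a1, Slc35b3 and Slc45a2 were higher in EPC_Late and Slc30a1 was lower. Among members above background on all 6 arrays, 5 of 27 were past the threshold against 25.6% of such probes. The same subset gave 4 of 27 against 22.7% between EPC_Late and EPC_acLDL, and 2 of 27 against 3.44% between EPC_acLDL and EPC. The normalized values of 17 members did not overlap between EPC_Late and EPC, where 58% of probes did not, of 20 between EPC_Late and EPC_acLDL (58.6%) and of 17 between EPC_acLDL and EPC (50.8%). The median size of the log2 difference for these 27 members and for all such probes was 0.15 and 0.24 in EPC_Late minus EPC, 0.17 and 0.22 in EPC_Late minus EPC_acLDL, and 0.15 and 0.17 in EPC_acLDL minus EPC. Between EPC_Late and EPC_acLDL, 3 members rose and 2 fell, where 20.9% of probes were past the threshold (9.34% higher and 11.5% lower). One of the 2 that fell, Slc39a7, met the rule in EPC_acLDL only and had to differ. With arrays shifted to their 75th percentile instead of quantile normalized, the split was 1 higher and 5 lower. Between EPC_acLDL and EPC, 1 member rose and 1 fell, where 3.3% of probes were past the threshold (1.93% higher and 1.37% lower), and 3 rose and 0 fell after the shift. That shift moved the median of all probes by 0.16 in EPC_acLDL minus EPC and by -0.15 in EPC_Late minus EPC_acLDL.

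**Figure D2:**
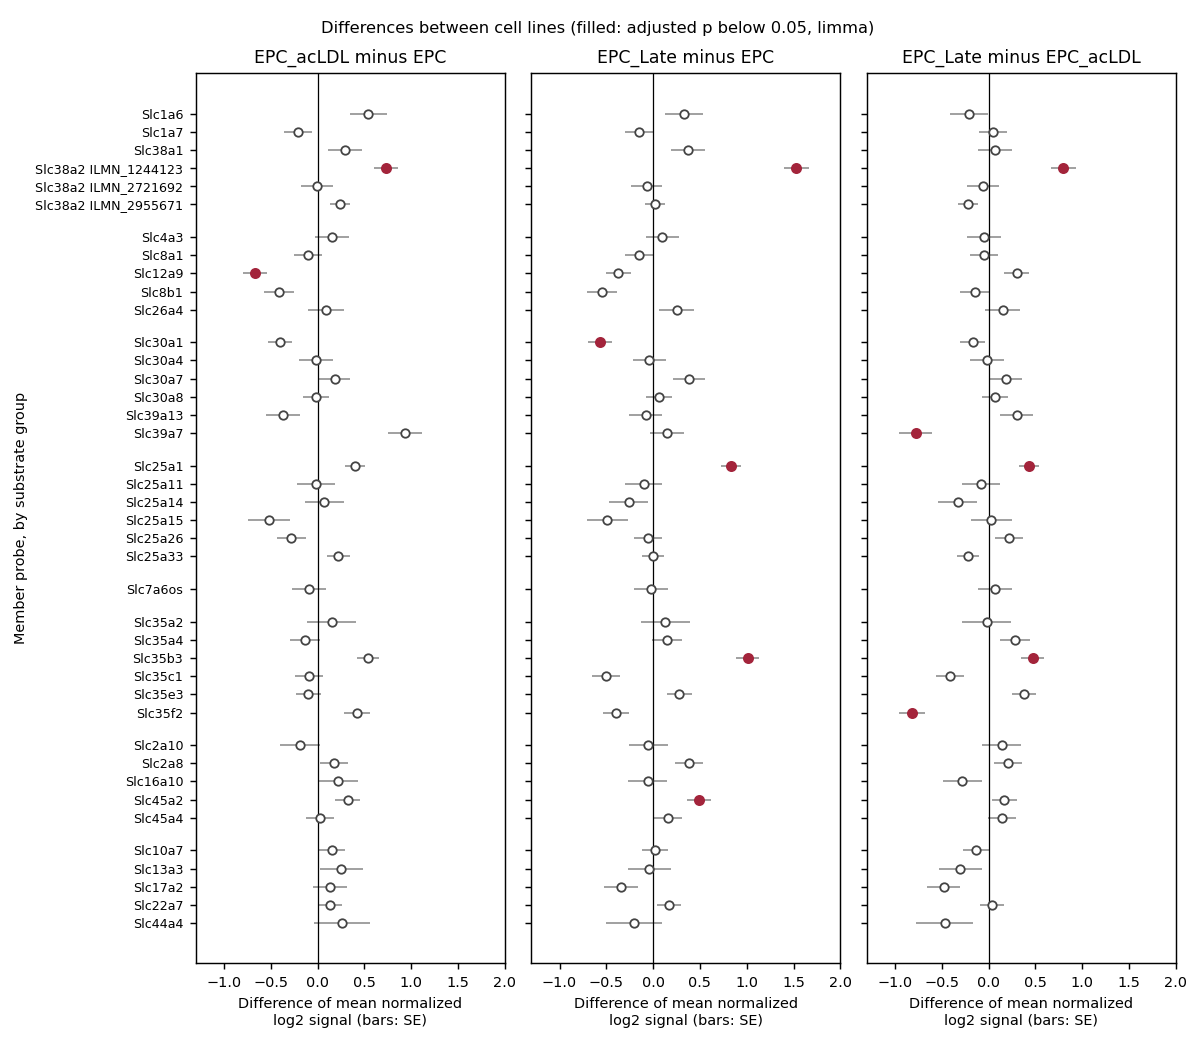
Difference of mean normalized log2 signal for each of the 40 members in the 3 comparisons, with bars of 1 standard error as moderated by limma. Filled points had an adjusted p below 0.05 in limma, which are 2 members in EPC_acLDL minus EPC, 5 in EPC_Late minus EPC and 5 in EPC_Late minus EPC_acLDL.

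The amino acid carriers gave the largest difference of any member, on 1 of 3 probes for Slc38a2. Slc38a2 encodes SNAT2, which brings small neutral amino acids such as alanine and glutamine into the cell with sodium. Probe ILMN_1244123 read 540.4 and 535.7 in EPC, 724.9 and 775.5 in EPC_acLDL, and 1023 and 986.2 in EPC_Late. The lines did not overlap, and EPC_Late was highest. Signal rose by 1.53 on the log2 scale from EPC to EPC_Late (SE 0.13, n = 2 arrays a line, 2.89-fold, adjusted p = 0.00069 in limma), by 0.73 from EPC to EPC_acLDL (SE 0.13, adjusted p = 0.044) and by 0.80 from EPC_acLDL to EPC_Late (SE 0.13, adjusted p = 0.0086). Without background correction the first value was 0.81. The call between EPC and EPC_acLDL was lost whichever of the 6 arrays was left out, and that between EPC_acLDL and EPC_Late was lost without EPC_acLDL replicate 1 (adjusted p = 0.066 in limma) or EPC_Late replicate 1 (adjusted p = 0.055).

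The other 2 Slc38a2 probes had no call in any comparison. Probe ILMN_2721692 read 599.7 and 631.6 in EPC, 613 and 738.2 in EPC_acLDL, and 653.1 and 640.6 in EPC_Late, a difference of -0.07 between EPC_Late and EPC (SE 0.17, adjusted p = 0.83 in limma). Probe ILMN_2955671 read 428 and 448, 475.6 and 503.3, and 466.4 and 480.8 in the same order, a difference of 0.02 (SE 0.11, adjusted p = 0.92 in limma). Its EPC_acLDL arrays lay above both EPC arrays, by 0.24 (SE 0.11, adjusted p = 0.29 in limma), and its deposited EPC_Late intensities did too. All 3 probes were above background on all 6 arrays, and the difference of the first is a value of that probe rather than of the gene. What separates the probes was not tested.

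**Figure D3:**
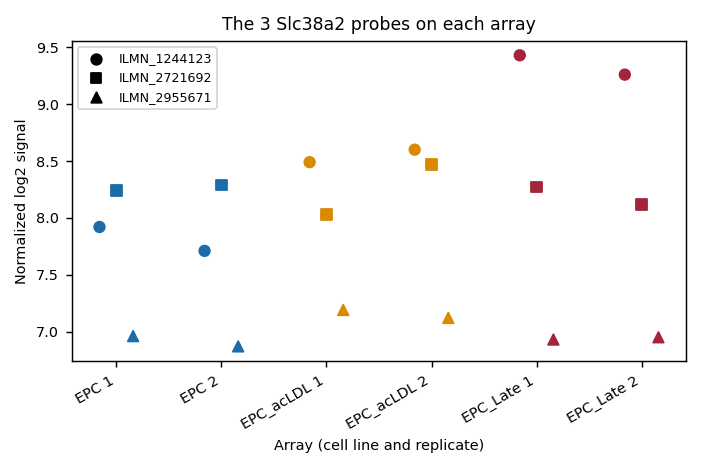
Normalized log2 signal of the 3 Slc38a2 probes on each of the 6 arrays, with 1 marker shape per probe and 1 colour per line. ILMN_1244123 is higher on both EPC_Late arrays than on both EPC arrays, while the other 2 probes differ by -0.07 and 0.02 between those lines.

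The remaining amino acid carriers were Slc38a1, which encodes SNAT1, a close relative of SNAT2, and the glutamate transporters Slc1a6 and Slc1a7. Slc38a1 read 426.3 and 421.3 in EPC and 484.5 and 496.7 in EPC_Late, a difference of 0.37 that was not past the threshold (SE 0.18, adjusted p = 0.21 in limma). Slc1a6, known from Purkinje neurons, read 428.4 and 413.6 in EPC, 498.9 and 502.9 in EPC_acLDL and 487 and 478.9 in EPC_Late. Slc1a7, known from the retina, stayed between 523.9 and 560.3 on the 6 arrays. None of these 3 was past the threshold in any comparison. Slc38a1 and Slc1a6 met the rule in EPC_acLDL and EPC_Late but not in EPC, which favoured lower values in EPC.

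Of the mitochondrial carriers, Slc25a1 rose in EPC_Late. It encodes the citrate carrier, which exports citrate from the matrix for cytosolic acetyl-CoA and lipid synthesis. Its probe read 2610.2 and 2576.2 in EPC, 3839 and 3729.4 in EPC_acLDL, and 4482.6 and 4534.4 in EPC_Late, with no overlap between the lines. The difference between EPC_Late and EPC was 0.83 (SE 0.11, 1.77-fold, adjusted p = 0.0025 in limma), and it ranged from 0.75 to 0.84 over all alternative settings. Between EPC_Late and EPC_acLDL it was 0.43 (SE 0.11, adjusted p = 0.032 in limma), a call lost whichever of the 6 arrays was left out and under the 75th percentile shift (0.28, adjusted p = 0.18). The second Slc25a1 probe was above background on no array, with 257.7 to 308.6.

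The other 5 mitochondrial carriers were not past the threshold in any comparison. Slc25a33, a pyrimidine nucleotide carrier, read 1526.1 and 1571.3 in EPC, 1960.7 and 2130.2 in EPC_acLDL, and 1538.2 and 1663.8 in EPC_Late. Its EPC_acLDL arrays were the highest, by 0.22 over EPC (SE 0.12, adjusted p = 0.37 in limma). Slc25a11, the oxoglutarate and malate carrier, read 712.1 to 901.6, and EPC_Late overlapped both other lines. Slc25a14, Slc25a15, the ornithine carrier of the urea cycle, and Slc25a26, which imports S-adenosylmethionine, differed by -0.26, -0.49 and -0.05 between EPC_Late and EPC, and the smallest difference of the group was 0 for Slc25a33. Slc25a15 met the rule in EPC only, which favoured a lower value in the other lines.

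Of the nucleotide sugar family, Slc35b3 rose and Slc35f2 was highest in EPC_acLDL. Slc35b3 carries PAPS, the sulfate donor, into the Golgi apparatus. Its probe read 500.4 and 543.9 in EPC, 654.9 and 677 in EPC_acLDL, and 739.4 and 794.6 in EPC_Late, again with no overlap between the lines. The difference between EPC_Late and EPC was 1.01 (SE 0.12, 2.02-fold, adjusted p = 0.0019 in limma), and 0.47 without background correction. Between EPC_Late and EPC_acLDL it was also 0.47 (SE 0.12, adjusted p = 0.037), a call kept only without EPC replicate 2 (adjusted p = 0.049 in limma) when arrays were left out, and lost after the 75th percentile shift (0.31, adjusted p = 0.15). The other 2 Slc35b3 probes were above background on no array.

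Slc35f2 read 934.7 and 941.8 in EPC, 1381.8 and 1264.8 in EPC_acLDL, and 800.7 and 944.2 in EPC_Late. Both EPC_acLDL arrays lay above the other 4. EPC and EPC_Late overlapped in deposited intensity but not in normalized log2 signal, which was 9.40 and 9.39 in EPC and 8.83 and 9.17 in EPC_Late, a difference of -0.40 that was not past the threshold (SE 0.14, adjusted p = 0.10 in limma) and ran from -0.23 without EPC_Late replicate 1 to -0.54 without EPC_Late replicate 2. Signal fell by 0.82 from EPC_acLDL to EPC_Late (SE 0.14, adjusted p = 0.011 in limma), and the call was lost without either EPC_acLDL array (adjusted p = 0.082 and 0.062). The difference of 0.42 between EPC_acLDL and EPC was not past the threshold (adjusted p = 0.17 in limma). Slc35a2, the UDP-galactose carrier, Slc35c1, the GDP-fucose carrier, and the family members Slc35a4 and Slc35e3 were not past it in any comparison. Of these, Slc35c1 had the largest difference between EPC_Late and EPC, -0.50 (SE 0.15, adjusted p = 0.059 in limma), and Slc35a2 the smallest, 0.13. Slc35c1 met the rule in EPC and EPC_acLDL but not in EPC_Late, which favoured a lower value there. Its deposited intensities overlapped between EPC_Late and EPC.

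Of the zinc carriers, Slc30a1 fell and Slc39a7 was detected in EPC_acLDL only. Slc30a1 encodes the zinc exporter of the plasma membrane. Its deposited intensities, 493.1 and 536.7 in EPC, 481.1 and 521.4 in EPC_acLDL and 471.6 and 507.7 in EPC_Late, overlapped. After normalization the log2 signal was 7.58 and 7.73 in EPC, 7.23 and 7.28 in EPC_acLDL and 6.98 and 7.19 in EPC_Late, without overlap. The difference between EPC_Late and EPC was -0.57 (SE 0.13, adjusted p = 0.022 in limma), and when arrays were left out the call was kept without EPC replicate 1 (-0.64, adjusted p = 0.05 as rounded, just below the threshold) or EPC_Late replicate 2 (-0.67, adjusted p = 0.042) and lost without any of the other 4. The difference was -0.19 without background correction and -0.33 with background estimated without the detection p-values and an offset of 50.

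Slc39a7, which releases zinc from the endoplasmic reticulum, read 335.8 and 395.8 in EPC, 436.7 and 505.5 in EPC_acLDL, and 411.9 and 400.8 in EPC_Late. The other Slc39a7 probes were above background on no array. This one was above background on the EPC_acLDL arrays alone, so that it had to differ by the rule that chose it and its p-values are no support. Against the lowest signal above background, EPC_acLDL was at least 1.11-fold higher than EPC (adjusted p = 0.055 in limma) and at least 1.14-fold higher than EPC_Late (adjusted p = 0.028). When arrays were left out the latter call was kept only without either EPC array (adjusted p = 0.036 and 0.035 in limma). Such bounds set the bright line's mean against the higher of the dim probe's own value and the lowest signal among probes above background. Slc30a4, Slc30a7 of the Golgi apparatus, Slc30a8, known from insulin granules, and Slc39a13 were not past the threshold in any comparison. Slc30a7 had the largest difference of these between EPC_Late and EPC, 0.38 (SE 0.17, adjusted p = 0.17 in limma), and Slc30a4 the smallest, -0.04.

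Of the ion carriers, Slc12a9 fell in EPC_acLDL. This member of the cation-chloride cotransporter family read 787.2 and 841.1 in EPC, 667.5 and 730.5 in EPC_acLDL, and 770.8 and 741.7 in EPC_Late. Both EPC arrays were the highest, and the other Slc12a9 probes were above background on no array. The difference between EPC_acLDL and EPC was -0.67 (SE 0.13, adjusted p = 0.048 in limma), and the call was lost whichever of the 6 arrays was left out and after the 75th percentile shift (-0.50, adjusted p = 0.08). Slc8a1, a sodium-calcium exchanger, Slc4a3, an anion exchanger, and Slc26a4, pendrin, were not past the threshold in any comparison, and Slc4a3 had the smallest difference of the group between EPC_Late and EPC, 0.10. Slc8b1, the mitochondrial sodium-calcium exchanger listed under an older SLC24 name, met the rule in EPC only, which fixed the direction of its difference. It read 417.1 and 461 in EPC, 422.9 and 419.3 in EPC_acLDL, and 405 and 437.8 in EPC_Late, and the deposited intensities overlapped. On the normalized scale EPC was at least 1.13-fold above EPC_acLDL and at least 1.10-fold above EPC_Late, with no call.

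Of the sugar and monocarboxylate carriers, Slc45a2 rose in EPC_Late. Slc45a2 is known as a melanosome protein. It read 429 and 449.2 in EPC, 491.8 and 511.2 in EPC_acLDL, and 506.8 and 548.4 in EPC_Late, a difference of 0.49 between EPC_Late and EPC (SE 0.13, adjusted p = 0.036 in limma). The EPC arrays were the lowest. The call was lost without background correction (0.16, adjusted p = 0.094 in limma), with background estimated without the detection p-values and an offset of 50 (0.28, adjusted p = 0.057), and whichever of the 6 arrays was left out, and the other 3 Slc45a2 probes were above background on no array. Slc2a8, a glucose transporter of internal membranes, met the rule in EPC_Late only, which likewise fixed its direction. It read 402.2 and 407.8 in EPC, 413.8 and 462.4 in EPC_acLDL, and 454.1 and 484.2 in EPC_Late, where the last 2 lines overlapped. On the normalized scale EPC_Late was at least 1.04-fold above EPC and at least 1.09-fold above EPC_acLDL, with no call. Slc2a10, Slc45a4 and Slc16a10, which carries aromatic amino acids, were not past the threshold in any comparison, with -0.05, 0.16 and -0.06 between EPC_Late and EPC.

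The carriers of organic molecules and lipids, Slc10a7, Slc13a3, Slc17a2, Slc22a7 and Slc44a4, had no call in any comparison, and the smallest difference between EPC_Late and EPC was 0.02 for Slc10a7. Slc17a2 was above background on no array of either of those lines, so its difference there is not given. Slc22a7, an organic anion transporter, read 714.1 and 753.9 in EPC, 900.4 and 836.2 in EPC_acLDL, and 859.2 and 827.5 in EPC_Late. Its normalized difference between EPC_Late and EPC was 0.17 (SE 0.13, adjusted p = 0.44 in limma). Slc13a3, Slc17a2 and Slc44a4 met the rule in EPC_acLDL only, which favoured higher values there. On the normalized scale Slc17a2 and Slc44a4 were at least 1.01-fold and at least 1.08-fold higher there than in EPC_Late, with no call.

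**Figure D4:**
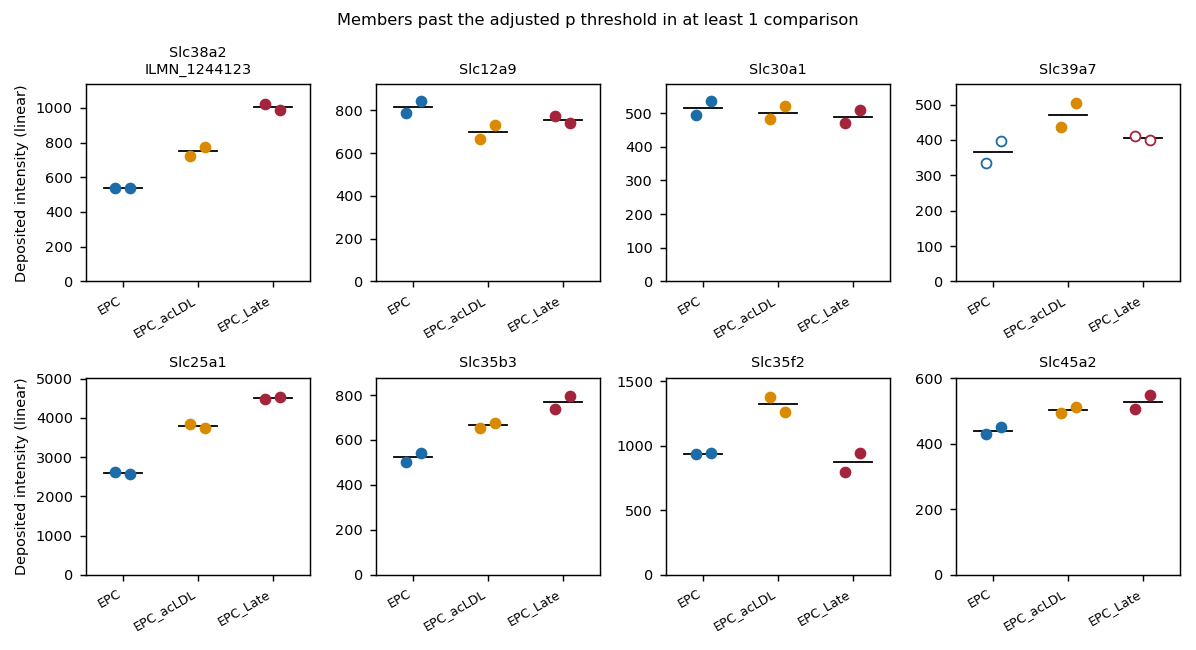
Deposited intensity on a linear axis from 0 for the 8 probes past the adjusted p threshold in at least 1 comparison, with 1 point per array, open where the detection p-value was not below 0.05, and a line at the mean of the 2 arrays. Slc38a2 (ILMN_1244123), Slc25a1 and Slc35b3 are lowest in EPC and highest in EPC_Late without overlap, and Slc35f2 is highest in EPC_acLDL.

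Genes that work with the carriers were taken from a list of 35, of which 29 had a probe and 7 of 45 probes met the detection rule. None of the 7 was past the threshold between EPC_acLDL and EPC in limma, where 3.3% of all probes tested were. An unadjusted p below 0.05 was found for 3 of the 7 and for 469 of the 2333 probes tested. Between EPC_Late and EPC 0 rose and 3 fell, where 23.9% of all probes tested were past the threshold, and in EPC_Late minus EPC_acLDL 1 rose and 4 fell, where 20.9% were. Got2, the mitochondrial aspartate aminotransferase of the malate-aspartate shuttle, fell by 1.33 from EPC to EPC_Late (SE 0.15, adjusted p = 0.0014 in limma), and Slco3a1, an organic anion carrier outside the SLC numbering searched, fell by 1.13 (SE 0.12, adjusted p = 0.0012). Hk1, a hexokinase, fell by 0.87 (SE 0.21, adjusted p = 0.028 in limma).

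Vdac3, a channel of the mitochondrial outer membrane, fell by 0.88 from EPC_acLDL to EPC_Late (SE 0.11, adjusted p = 0.0033 in limma), and Mtch2, an outer membrane relative of SLC25, fell by 0.70 (SE 0.11, adjusted p = 0.0066). Phgdh, the first enzyme of serine synthesis, was at least 1.46-fold higher in EPC_Late than in EPC_acLDL (adjusted p = 0.025 in limma). It was above background on no EPC_acLDL array, so that the detection rule fixed this direction. The channels Vdac1 and Vdac2 were above background on no array. Of the cell type markers, Col1a2, a fibroblast collagen, was higher in EPC_Late than in EPC by 0.43 (SE 0.12, adjusted p = 0.047 in limma) and 1 probe of Coro1a, a leukocyte gene, was lower, by -1.29 (SE 0.26, adjusted p = 0.015). The other Coro1a probes were above background on no array, and Csf1r, the second leukocyte gene that met the rule, differed by 0.12 (SE 0.15, adjusted p = 0.65 in limma). Summed marker intensity ran from 5002 to 5779 over the endothelial list, from 2893 to 3436 over the fibroblast list and from 4064 to 4645 over the leukocyte list, and its part in the carrier differences was not tested.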

How the data were processed

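Total RNA was hybridized to Illumina MouseRef-8 v2.0 BeadChips. Per the study's methods, the authors summarized the beads with Beadstudio, which corrects local background by default, and deposited linear intensity values that were not normalized. The detection p-values were deposited with them. Processing used limma 3.58.1 under R 4.3.3, where neqc estimated background from the detection p-values, added an offset of 16, quantile normalized and took log2. The 2333 probes detected (below 0.05) on each array of the pair from 1 or more lines were fitted together over all 6 arrays with lmFit and eBayes, without covariates, and p-values were adjusted by Benjamini-Hochberg, with calls below 0.05. The script was tested on simulated data. Of the 40 member names, 39 matched a current RefSeq symbol and 1 a synonym. Values on every array are given for members with a call, and of the others the smallest and largest difference between EPC_Late and EPC in each substrate group, with bounds for lines with no array above background. Further values (such as those of Slc1a6, Slc1a7, Slc38a1, Slc25a33, Slc25a11 and Slc22a7) were chosen after they were seen. The members and gene lists were chosen with earlier results of these data known. With 2 arrays a line, their number limits the precision. Alternatives varied the background estimate together with the offset, background correction, scaling, detection filter, replicate block, eBayes trend, the methods' t-test and leaving out each array.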

Additional observations from a re-analysis of the deposited data

How the results depend on the processing

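The sign of a difference could change only under another background estimate or scaling, or with an array left out. The other settings reuse the same normalized values. Of the 12 called differences (1 of them of Slc39a7, which had to differ by the rule), all 12 kept their sign in every setting in which they were fitted. Slc39a7 and Slc45a2 were not fitted at a detection p-value below 0.01. Those past the threshold in all 6 fits without 1 array were 3, all EPC_Late minus EPC: Slc38a2 (1.43 to 1.64), Slc35b3 (0.94 to 1.10) and Slc25a1 (0.82 to 0.84). In the methods' t-test after adjustment, Slc25a1 stayed past the threshold between EPC_Late and EPC (adjusted p = 0.03), and Slc38a2 (0.091) and Slc35b3 (0.098) did not. The number of members was 40, and 16 at a detection p-value below 0.01. In EPC_acLDL minus EPC, 2 members were called. In the main fit 11 members had an unadjusted p below 0.05 in limma, as had 469 of all 2333 probes. How many of all probes passed was not counted for the alternatives, so their counts describe the members only. Background estimated without the detection p-values and with an offset of 50, which are 2 changes together, gave 4, a detection p-value below 0.01 gave 4, eBayes with trend and robust gave 5, no background correction gave 6, and no detection filter gave 0 in limma (13 at an unadjusted p below 0.05). The methods' t-test gave 8 before adjustment and 0 after it. Leaving out 1 array gave 0 to 0 in limma, with 5 to 10 members at an unadjusted p below 0.05. In EPC_Late minus EPC (5 called), the adjusted t-test gave 1 and leaving out 1 array gave 3 to 4. In EPC_Late minus EPC_acLDL (5 called), no detection filter gave 2, the adjusted t-test 0 (6 unadjusted) and leaving out 1 array 0 to 4. Slc39a7 was above background on no array of EPC or EPC_Late, and its difference between those lines, at background in both, was 0.15 and ran from -0.02 without EPC_Late replicate 1 to 0.32 without EPC_Late replicate 2. Without background correction Slc12a9 and Slc38a2 in EPC_acLDL minus EPC were -0.37 and 0.34, and Slc35b3, Slc35f2 and Slc38a2 in EPC_Late minus EPC_acLDL were 0.24, -0.54 and 0.47, all still past the threshold. Causes were not tested.

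Replicate numbers are shared between lines, and deviations of same-numbered arrays correlated at 0.08, 0.02 and 0.03 after quantile normalization. That step removes a shift of a whole array, so these values cannot decide whether the arrays are pairs. The median deposited intensity was higher on replicate 2 in EPC (342.4 against 311), EPC_acLDL (345.2 against 304.6) and EPC_Late (358.7 against 336.6). Pairs were not used in the main fit. With a replicate block limma called 0 members in EPC_acLDL minus EPC (8 at an unadjusted p below 0.05). It called 5 in EPC_Late minus EPC, 3 higher and 2 lower, of which 4 were among those called without it, and Slc45a2 was lost (adjusted p = 0.058). It called 4 in EPC_Late minus EPC_acLDL, all 4 among those called without it, and Slc25a1 was lost (adjusted p = 0.054).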
